A study of Mus musculus with 6 samples.

Results

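The 10 genes described here are 6 subunits of the transcription factor AP-1 (Fos, Fosb, Fosl2, Jun, Junb and Jund) and 4 further immediate early genes (Egr1, Dusp1, Ier2 and Zfp36). They were chosen by gene symbol, and 10 of 10 were found among the 14608 genes of the deposited tables. The choice was made with earlier results of these data known, in which Fos and Jun were already named as higher in Cdc42-/- than in Cdc42+/-. Their levels are therefore given as a description, and no p-value is printed for them. Where the text says how many of them passed a threshold, no conclusion is drawn from it. All 10 passed the filter on low values (0.5 RPKM or more on average over the 6 libraries), as did 12233 genes in all.

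The libraries were made from regulatory T (Treg) cells of mouse spleen, a kind of CD4 T cell that holds back immunity. There were 2 libraries for each of 3 genotypes: wild type (WT), heterozygous Cdc42 knockout (Cdc42+/-) and homozygous Cdc42 knockout (Cdc42-/-). Cdc42 is a small GTPase that controls the actin cytoskeleton and cell polarity. Cells of all 3 genotypes were sorted as positive for CD4 and for the fluorescent protein YFP. The promoter behind YFP, the cells in which Cdc42 was deleted, and the age and sex of the mice are not given in the sources used here. The design text speaks of 2 mice per genotype, so each group has 2 libraries.

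AP-1 is a dimer of bZIP proteins. Jun proteins pair with each other or with Fos proteins, whereas Fos proteins need a Jun partner, and the dimer binds the sequence TGACTCA and close variants of it. Immediate early genes are transcribed within minutes of a signal without new protein synthesis, and their RNA is short-lived. In T cells they respond to the antigen receptor through MAP kinases and the serum response factor, and AP-1 acts with NFAT and with BATF on the genes of activated T cells. Junb is known for its part in effector Treg cells.

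Upstream sequences are shown for Fos, Jun and Dusp1, the 3 genes with the highest fold change on log2(RPKM + 1) in Cdc42-/- against WT below. As a ratio of mean RPKM, Fosb was above Dusp1 (10.7-fold against 5.10-fold). The sequences are shown because letters known as response elements for cyclic AMP (TGACGTCA and its core TGACGT) or for AP-1 (TGACATCA) lie in them. They are RefSeq sequences of GRCm38.p6, 5′ to 3′ on the strand of the gene. Capitals mark TGACGT, TGACGTCA, TGACATCA and TATAAA.
Fos, chr12:85473690-85473889, + strand, bases 200 to 1 upstream of the start: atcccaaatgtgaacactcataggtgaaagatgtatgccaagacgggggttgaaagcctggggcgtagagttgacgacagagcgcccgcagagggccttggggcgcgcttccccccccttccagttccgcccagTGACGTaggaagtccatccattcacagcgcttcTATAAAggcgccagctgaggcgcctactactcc
Jun, chr4:95052223-95052422, - strand, bases 200 to 1 upstream of the start: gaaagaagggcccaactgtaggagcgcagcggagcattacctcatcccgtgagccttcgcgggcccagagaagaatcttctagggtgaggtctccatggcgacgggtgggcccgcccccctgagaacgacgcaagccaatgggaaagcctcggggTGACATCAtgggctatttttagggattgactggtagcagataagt
Dusp1, chr17:26508520-26508672, - strand, bases 200 to 48 upstream of the start: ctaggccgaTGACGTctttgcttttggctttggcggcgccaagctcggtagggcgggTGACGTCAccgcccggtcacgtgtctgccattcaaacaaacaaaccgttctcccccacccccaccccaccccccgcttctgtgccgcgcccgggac

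The letters of 6 motifs were searched on both strands in the 250 bases upstream of each RefSeq start (TATAAA on the gene's strand only), for 8 of the 10 genes and for 32851 promoters in all. TGACGT was found in 6.47% of all promoters, and began 66 bases upstream of the start of Fos and 191 bases upstream of that of Dusp1; it also lies within every TGACGTCA. TGACGTCA was found in 1.55% of promoters and began 143 bases upstream of Dusp1. TGACATCA, a variant of the AP-1 motif, was found in 2.93% of promoters and began 45 bases upstream of Jun. TATAAA (7.59% of promoters) began 33 bases upstream of Fos. A CArG box, the sequence bound by serum response factor, was found in 1.47% of promoters and in Zfp36, where it began 58 bases upstream. Egr1 and Ier2 were not searched, and a box further than 250 bases upstream of any gene would not have been seen. TGACTCA (4.46% of promoters) was found in none of the 8 windows. These are matches of letters and not measured binding sites.

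The libraries held between 8556576 and 17796100 reads in genes. Cdc42 itself stood at 161 to 166 RPKM in WT and 156 to 164 RPKM in Cdc42+/-, and its Cdc42-/- values were 122 and 173 RPKM, so that the genotype is known from the labels alone. The defining Treg and T cell markers were present in all 6 libraries, with a sum over 7 markers of 1516 to 1643 RPKM in WT and Cdc42+/- and of 1241 and 1015 RPKM in Cdc42-/-, the lowest of the 6. Cd3e, a chain of the T cell receptor complex, was at 237 and 202 RPKM in Cdc42-/- against 372 to 395 RPKM in the other genotypes. Foxp3, the defining factor of Treg cells, was at 118 and 58.4 RPKM against 103 to 131 RPKM. Ctla4, an inhibitory receptor of Treg cells on the same list, went the other way, at 202 and 201 RPKM in Cdc42-/- against 130.0 to 157 RPKM. Il2ra was at 178 and 139 RPKM in Cdc42-/-, the first inside and the second below the range of the other genotypes (149 to 232 RPKM). Replicate 2 of Cdc42-/- stood apart from the other 5 libraries. Its sum over 10 monocyte and macrophage markers was 1313 RPKM, against 132 to 216 RPKM in the others, and 10 of the 10 markers were highest in it. Most of that sum was Ctss in the other 5 libraries (110 to 208 RPKM), and the 9 markers without Ctss gave sums of 4.44 and 8.34 RPKM for WT, of 17.5 and 19.2 RPKM for Cdc42+/-, and of 21.7 and 1042 RPKM for Cdc42-/-. Lyz2, the lysozyme of myeloid cells, was at 600.2 RPKM there and at 9.75 RPKM in replicate 1 of Cdc42-/-. The sum over 7 neutrophil markers was 518 RPKM against 12.9 to 51.1 RPKM, and over 4 erythroid markers 30.9 RPKM, against 6.74 RPKM in replicate 1 of Cdc42-/- and 0.478 to 1.14 RPKM in WT and Cdc42+/-. B cell markers summed to 11.0 to 22.1 RPKM in all 6 libraries. Their parts in the results below were not tested, and the log2 fold changes and counts of genes called in Cdc42-/- are given with and without replicate 2 (the counts of the lists at the end), whereas ranks, means, ratios of means and counts without overlap use both replicates. The Y-linked gene Ddx3y was at 37.7 and 42.4 RPKM in WT, at most 0.126 RPKM in Cdc42+/-, and at 0.0974 and 27.5 RPKM in Cdc42-/-. Xist, the RNA of the inactive X chromosome, was at 0.199 and 1.13 RPKM in WT, at 99.3 and 93.3 RPKM in Cdc42+/-, and at 87.4 and 21.2 RPKM in Cdc42-/-, so that replicate 1 of Cdc42-/- was like Cdc42+/- in both genes and replicate 2 held both RNAs. Sex and genotype therefore cannot be told apart in the comparison of Cdc42+/- with WT, nor in any value against WT without replicate 2 of Cdc42-/-. In bulk RNA, a change in the number of cells of a type and in the RNA per cell cannot be told apart.

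In all that follows, pairs of values are those of replicates 1 and 2, in RPKM (reads scaled by the length of the gene and the reads of the library). Fold changes named log2 were computed on log2(RPKM + 1), where low genes show less than their full change, and carry the standard error (SE) of limma.

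In the Fos family, Fos itself had the highest fold change. Fos (gene ID 14281, chromosome 12, 85473890 to 85477273 in GRCm38) was at 1.89 and 4.69 RPKM in WT, at 3.02 and 1.34 RPKM in Cdc42+/-, and at 26.9 and 122 RPKM in Cdc42-/-. Both Cdc42-/- libraries lay above the other 4, which overlapped each other. The Cdc42-/- mean was 22.7-fold the WT mean (log2 3.85, SE 0.72) and 34.2-fold the Cdc42+/- mean (log2 4.26, SE 0.72). Replicate 1 of Cdc42-/- was 5.74-fold the higher WT library. In it, the 9 monocyte and macrophage markers without Ctss (21.7 RPKM) and the erythroid markers (6.74 RPKM) summed higher than in any WT or Cdc42+/- library, and their part in this was not tested. When replicate 2 of Cdc42-/- was left out, the log2 value was 2.78 against WT and 3.19 against Cdc42+/-. Between 50 and 97 reads per library lay behind the WT and Cdc42+/- values of Fos, and 623 and 2335 reads behind those of Cdc42-/-.

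Fosb (gene ID 14282, chromosome 7, 19302696 to 19310051), a close relative of Fos, was at 0.815 and 0.990 RPKM in WT, at 0.656 and 0.848 RPKM in Cdc42+/-, and at 2.01 and 17.3 RPKM in Cdc42-/-. The replicates of Cdc42-/- differed 8.61-fold, the widest gap of the 10 genes. Against WT this gave a log2 value of 1.97 (SE 0.77) with both replicates and of 0.66 without replicate 2. Fosl2 (gene ID 14284, chromosome 5, 32135801 to 32157842), also called Fra-2, was at 0.804 and 0.757 RPKM in WT and at 1.56 and 1.59 RPKM in Cdc42+/-. In Cdc42-/- it was at 1.62 and 5.40 RPKM, so that replicate 1 lay within 1.02-fold of the higher Cdc42+/- library. The log2 fold change of Fosl2 was 0.53 (SE 0.42) in Cdc42+/- and 1.20 (SE 0.42) in Cdc42-/- against WT, and 0.56 in the latter without replicate 2. Between 38 and 166 reads per library lay behind Fosl2 in WT and Cdc42+/-.

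**Figure D1:**
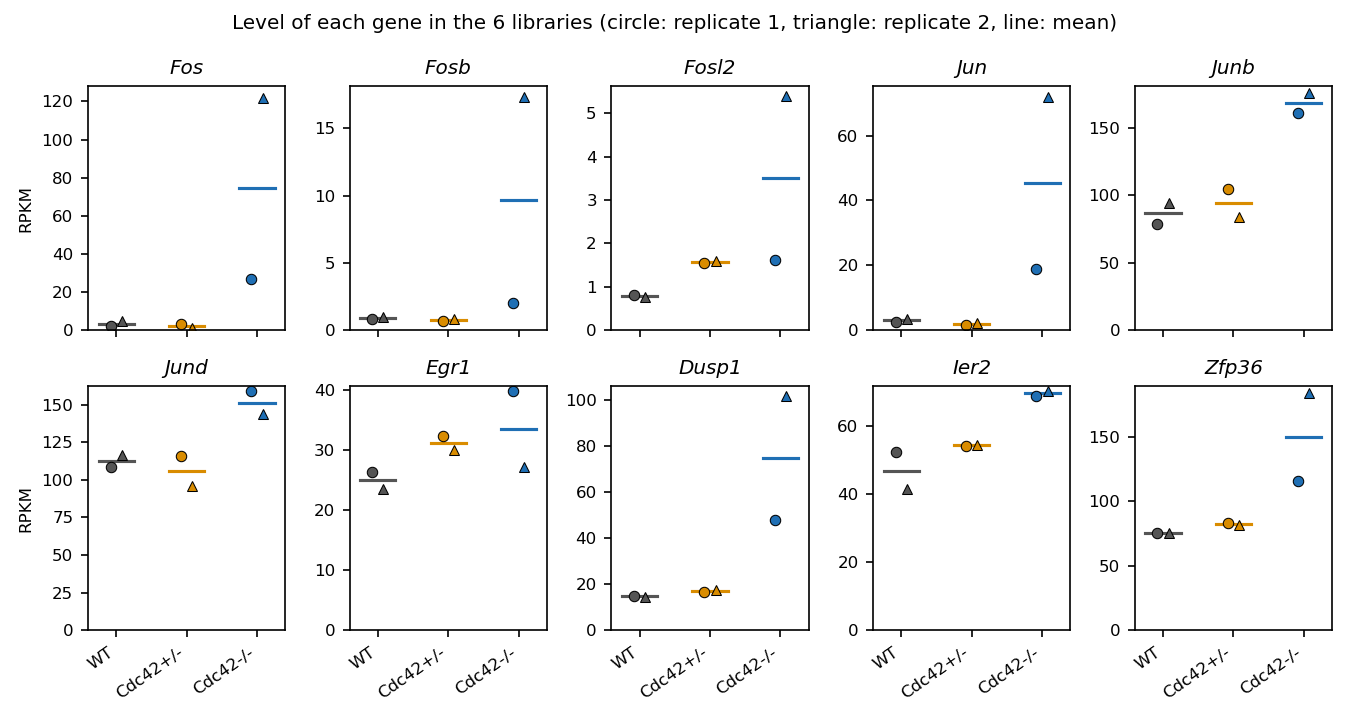
RPKM of each of the 10 genes (vertical axes, each starting at 0) in the 6 libraries by genotype, with replicate 1 as a circle, replicate 2 as a triangle and the mean as a line. Fos reaches 26.9 and 122 RPKM in Cdc42-/-, above at most 4.69 RPKM in the other genotypes, while Egr1 in Cdc42-/- (39.8 and 27.2 RPKM) spans the Cdc42+/- libraries.

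In the Jun family, the least abundant member, Jun, had the highest fold change, and the abundant members Junb and Jund had lower ones. Jun (gene ID 16476, chromosome 4, 95049034 to 95052222), the main partner of Fos, was at 2.50 and 3.45 RPKM in WT, at 1.72 and 2.04 RPKM in Cdc42+/-, and at 18.8 and 71.8 RPKM in Cdc42-/-. Cdc42-/- lay above the other genotypes without overlap, and Cdc42+/- lay below WT without overlap. The Cdc42-/- mean was 15.2-fold that of WT (log2 3.27, SE 0.56). Replicate 1 of Cdc42-/- was 5.45-fold the higher WT library and 9.19-fold the higher Cdc42+/- library, and without replicate 2 the log2 fold change against WT was 2.33.

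Junb (gene ID 16477, chromosome 8, 84974484 to 84978718) was at 78.9 and 94.4 RPKM in WT, at 105 and 83.6 RPKM in Cdc42+/-, and at 161 and 176 RPKM in Cdc42-/-. The WT and Cdc42+/- libraries overlapped, and both Cdc42-/- libraries were higher than they were (1.95-fold the WT mean, log2 0.96, SE 0.15). Without replicate 2 of Cdc42-/-, the log2 value was 0.89. Jund (gene ID 16478, chromosome 8, 70698949 to 70700616), known for being expressed without a stimulus in many cells, was at 108 and 117 RPKM in WT, at 116 and 95.6 RPKM in Cdc42+/-, and at 159 and 143 RPKM in Cdc42-/-. Its Cdc42-/- mean was 1.34-fold that of WT (log2 0.42, SE 0.13), and replicate 1 was here the higher of the Cdc42-/- libraries. Without replicate 2 the log2 value was 0.50.

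The make-up of both families differed between the genotypes. Jun gave between 0.773% and 1.61% of the summed RPKM of Jun, Junb and Jund in the WT and Cdc42+/- libraries, and 5.55% and 18.3% in Cdc42-/-. Jund gave 57.1% and 54.4% of the sum in WT and 46.97% and 36.6% in Cdc42-/-, although both Cdc42-/- libraries had the higher level of Jund. The share of Junb lay between 41.6% and 47.5% in all 6 libraries. In the Fos family, Fos gave between 35.5% and 72.8% of the sum in WT and Cdc42+/-, and 88.1% and 84.3% in Cdc42-/-. The summed RPKM of the Fos family was 3.51 to 6.43 in the WT and Cdc42+/- libraries and 30.5 and 145 in Cdc42-/-, whereas that of the Jun family was 181 to 222 and then 339 and 391.

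**Figure D2:**
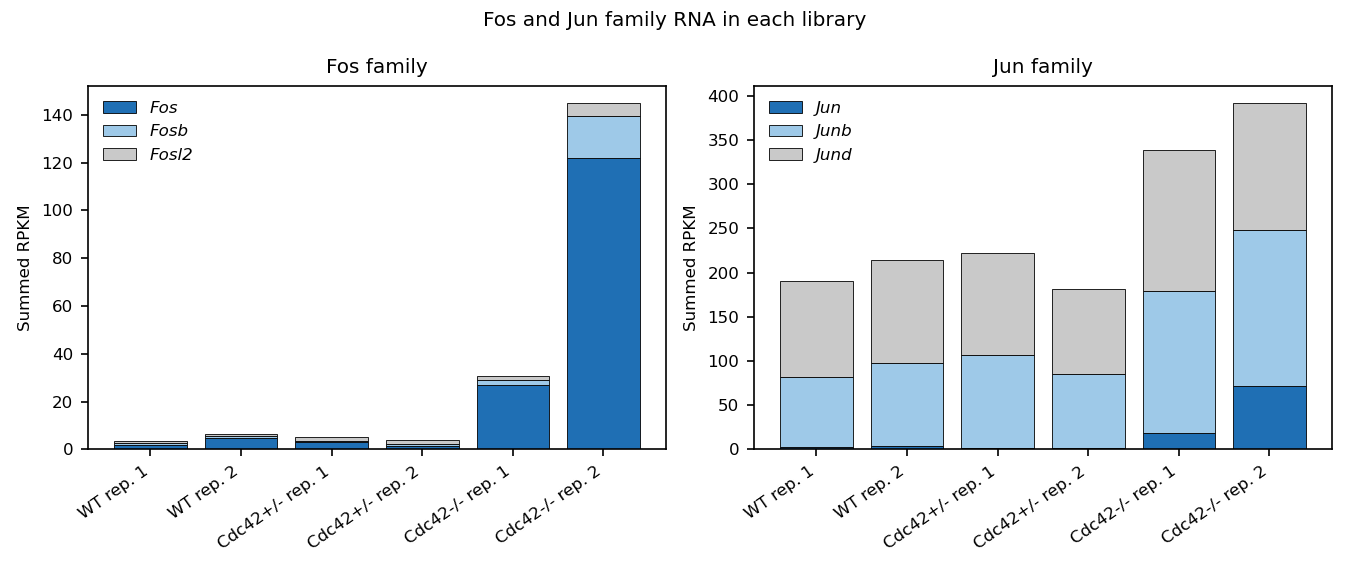
Summed RPKM (vertical axis) of the Fos family (left) and the Jun family (right) in each library, with each bar divided by gene. Fos makes up most of the Fos family bars of Cdc42-/- (88.1% and 84.3%), and Jun is a larger share of the Jun family bars in Cdc42-/- (5.55% and 18.3%) than in the other libraries (at most 1.61%).

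Of the other immediate early genes, Dusp1, a phosphatase that switches off MAP kinases, had the highest fold change. Dusp1 (gene ID 19252, chromosome 17, 26505590 to 26562128) was at 14.7 and 14.6 RPKM in WT, at 16.6 and 17.6 RPKM in Cdc42+/-, and at 47.8 and 102 RPKM in Cdc42-/-. The 3 genotypes did not overlap. Replicate 1 of Cdc42-/- was 3.26-fold the higher WT library, and the log2 value against WT was 2.18 (SE 0.32) with both replicates and 1.64 without replicate 2. The reads counted for Dusp1 numbered between 243 and 1803 per library. The interval given for Dusp1 covers a longer GENCODE transcript, so the RefSeq start used for its upstream sequence lies inside it.

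Zfp36 (gene ID 22695, chromosome 7, 28376784 to 28380253), tristetraprolin, binds AU-rich elements and speeds the decay of cytokine and immediate early RNAs. It was at 75.5 and 75.8 RPKM in WT, at 83.5 and 81.9 RPKM in Cdc42+/-, and at 115 and 184 RPKM in Cdc42-/-, without overlap between genotypes. The log2 fold change of Cdc42-/- against WT was 0.94 (SE 0.21), and 0.60 without replicate 2. Ier2 (gene ID 15936, chromosome 8, 84661331 to 84662852), a nuclear protein of the early serum response, was at 52.3 and 41.6 RPKM in WT, at 54.2 and 54.5 RPKM in Cdc42+/-, and at 69.0 and 70.3 RPKM in Cdc42-/-. The Cdc42-/- libraries were within 1.02-fold of each other, at a log2 value of 0.57 over WT (SE 0.13), which was 0.56 without replicate 2.

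Egr1 (gene ID 13653), a zinc finger factor induced by the MAP kinase ERK, was the 1 gene of the 10 whose Cdc42-/- libraries did not both lie above Cdc42+/-. It was at 26.2 and 23.5 RPKM in WT, at 32.2 and 30.0 RPKM in Cdc42+/-, and at 39.8 and 27.2 RPKM in Cdc42-/-. Its Cdc42-/- libraries lay on either side of the Cdc42+/- pair, and replicate 2 of Cdc42-/-, the highest library for Fos, was the lower of the 2 for Egr1. The log2 fold change of Cdc42-/- against WT was 0.39 (SE 0.19), and against Cdc42+/- it was 0.08 (SE 0.19). Without replicate 2 of Cdc42-/- these values were 0.66 and 0.35, and without replicate 1 they were 0.12 and -0.19. The difference between Egr1 and Fos in response was not tested.

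**Figure D3:**
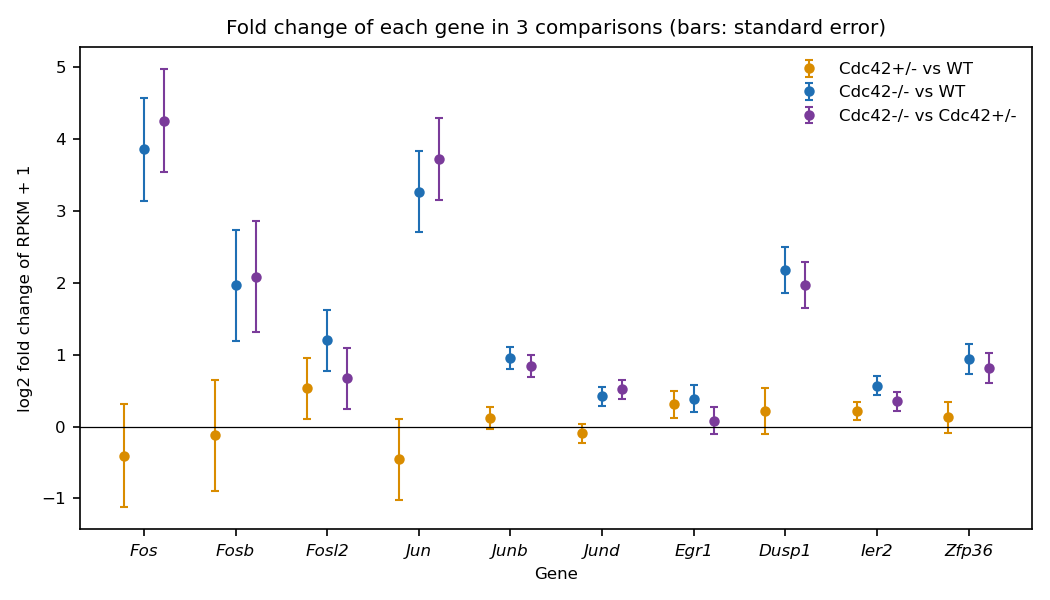
The log2 fold change of RPKM + 1 (vertical axis) of each gene in 3 comparisons, with bars of 1 standard error on either side. Fos and Jun stand at 3.85 and 3.27 in Cdc42-/- against WT and at -0.40 and -0.46 in Cdc42+/- against WT, and the 2 comparisons of Cdc42-/- share its libraries.

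The order of the levels per gene length differed between the genotypes. In WT, Jund (mean 113 RPKM) and Junb (86.6 RPKM) were the most abundant of the 10 genes, followed by Zfp36 (75.6), Ier2 (46.9), Egr1 (24.9), Dusp1 (14.6), Fos (3.29), Jun (2.97), Fosb (0.903) and Fosl2 (0.780 RPKM). Among neighbours in this order, the libraries of Fos and Jun overlapped and could not be ranked. In Cdc42-/- the order was Junb (169 RPKM), Jund (151), Zfp36 (150), Dusp1 (74.7), Fos (74.5), Ier2 (69.7), Jun (45.3), Egr1 (33.5), Fosb (9.66) and Fosl2 (3.51 RPKM). There the libraries of neighbours overlapped between Jund and Zfp36, along the run from Dusp1 through Fos, Ier2 and Jun to Egr1, and between Fosb and Fosl2. Ranked by mean RPKM among the 12233 genes tested, Fos went from place 9110 in WT to 856 in Cdc42-/-, and Jun from 9275 to 1685.

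The comparison of Cdc42+/- with WT asked what the loss of 1 Cdc42 allele does. With limma, 0 of the 10 genes were called at an adjusted p of 0.05, as were 0% of all genes tested. None had an unadjusted p under 0.05, and with voom on the recovered reads none passed. These fits share the spread of all 6 libraries, including the wider one of Cdc42-/-, so they could miss small changes between WT and Cdc42+/-. With the libraries of these 2 genotypes only, the SE of Dusp1 was 0.10 in place of 0.32. In that fit 0 of the 10 genes were called, where 0.604% of all genes were. Both Cdc42+/- libraries lay above both WT libraries for 5 genes (Fosl2, Egr1, Dusp1, Ier2 and Zfp36), as they did for 26.2% of all genes tested. The median log2 fold change of the 10 genes was 0.12, against 0.03 over all genes. Leaving out 1 library turned the sign for Fos (0.086 without WT replicate 2) and for Junb and Jund, so that no direction can be given for these. Some of the others kept their sign with an SE above the size of the value, among them Fosb (log2 -0.12, SE 0.77) and Jun (log2 -0.46, SE 0.56).

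The comparison of Cdc42-/- with WT asked what the loss of both alleles does. The count of the 10 genes past the threshold was 6 (Fos, Jun, Junb, Dusp1, Ier2 and Zfp36, all higher in Cdc42-/-), where 11.4% of all genes tested passed in either direction, 6.86% higher and 4.57% lower. Since the genes were chosen with these values known, nothing is read from that count. Both Cdc42-/- libraries lay above both WT libraries for 10 of the 10 genes, as for 28.9% of all genes tested, and the median log2 fold change was 1.08, against 0.01 over all genes. Without replicate 2 of Cdc42-/-, 8 genes passed (Egr1 and Jund were added), where 19.6% of all genes did, and the median was 0.66. Without replicate 1 of Cdc42-/- 8 genes passed as well, where 36.2% of all genes did. The count was 2 (Junb and Dusp1) without either Cdc42+/- library and with the 4 libraries of these genotypes only, where 4.46%, 4.57% and 4.44% of all genes passed. It was 0 without WT replicate 1 or 2, where 2.11% and 2.19% of all genes passed and the lone WT library is assumed to vary like the other genotypes.

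Cdc42-/- was also set against Cdc42+/-, from which it differs by the remaining Cdc42 allele according to the labels. Replicate 2 of Cdc42-/- also differed from Cdc42+/- in the cell type markers, Xist and Ddx3y, whose part was not tested. This comparison uses the same Cdc42-/- libraries as the comparison with WT. Fos, Jun, Junb and Dusp1 were called higher, where 8.22% of all genes passed in either direction, 4.68% higher and 3.54% lower. Since Fos and Jun were known beforehand as higher in this same comparison, nothing is read from these calls. For 9 genes, Egr1 being the exception, both Cdc42-/- libraries lay above both Cdc42+/- libraries, as for 28.6% of all genes. The median log2 fold change was 0.83 (0.68 without replicate 2 of Cdc42-/-), against -0.01 over all genes. Without replicate 2 of Cdc42-/- the count was 6, where 15.4% of all genes passed, and without replicate 1 it was 8, where 34.8% did. It was 0 without WT replicate 1 or 2 and in the fit of the 4 libraries alone, where 2.12%, 2.28% and 2.19% of all genes passed. It was also 0 without either Cdc42+/- library, where 0% of all genes passed.

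In the authors' deposited table, 7 of the 10 genes had an adjusted p under 0.05 in Cdc42-/- against WT, where 8.66% of its genes did. These were Fos (log2 fold change 4.45), Jun (3.87), Fosb (3.35), Dusp1 (2.29), Fosl2 (2.10), Zfp36 (0.93) and Junb (0.92). Fosb and Fosl2 are in that list and not among the 6 genes above, and Ier2 (0.52 in the authors' deposited table) is among the 6 only. For Cdc42+/- against WT the authors' deposited table lists 0 of the 10 genes past 0.05, where 2.28% of its genes were.

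The replicates of Cdc42-/- differed more for these genes than for most. Replicate 2 minus replicate 1 of Cdc42-/- had a median of 0.87 over the 10 genes on the log2(RPKM + 1) scale, with 8 of 10 above 0, against a median of 0.04 over all genes tested, of which 53.8% were above 0. The absolute gap between the replicates of Cdc42-/- had a median of 0.87 over the 10 genes and of 0.30 over all genes. It was 0.14 in WT and 0.13 in Cdc42+/- over the 10 genes, against 0.16 and 0.12 over all genes. The gap in Cdc42-/- was widest for Fosb, Fos, Jun and Fosl2 (8.61-fold, 4.54-fold, 3.82-fold and 3.33-fold higher in replicate 2). Ier2 and Junb differed 1.02-fold and 1.10-fold, and Jund and Egr1 were lower in replicate 2. The markers of monocytes, neutrophils and erythroid cells moved with this gap, as the values given above show, and their part in it was not tested.

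**Figure D4:**
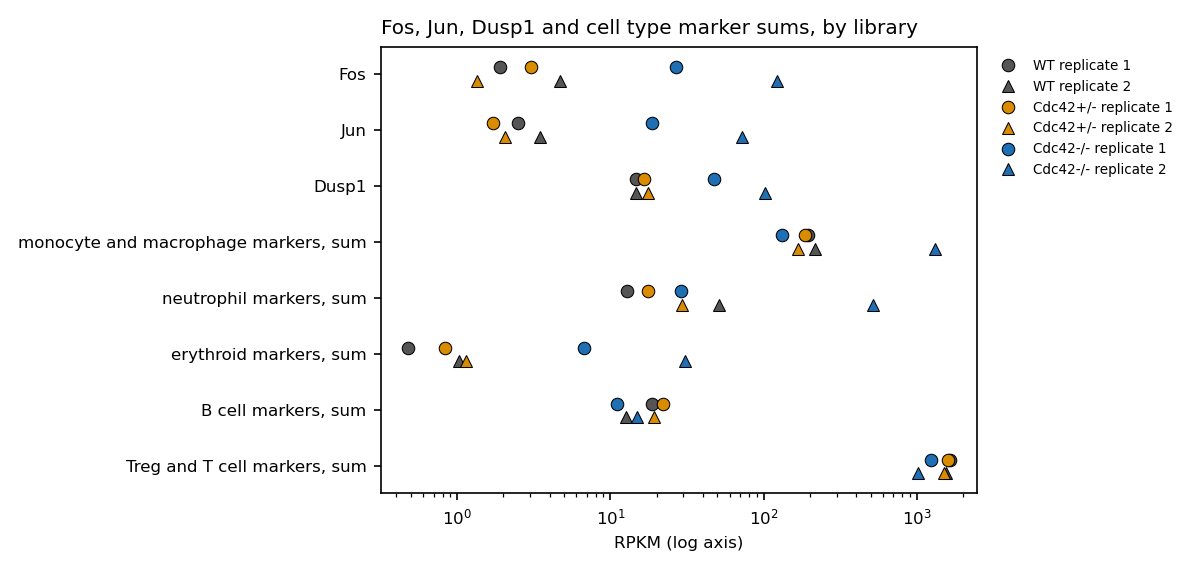
RPKM on a log axis of Fos, Jun and Dusp1 and the summed RPKM of markers of 5 cell types, with 1 symbol per library. In replicate 2 of Cdc42-/- Fos and the monocyte and macrophage sum are both the highest of the 6 libraries (122 and 1313 RPKM), and in replicate 1 Fos is at 26.9 RPKM and that sum, of which Ctss gives 110 RPKM, is at 132 RPKM.

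The 10 genes differed in how closely they followed Fos over the 6 libraries. On the log2(RPKM + 1) scale Pearson's r with Fos was 0.99 for Jun, 0.97 for Dusp1, 0.96 for Zfp36, 0.95 for Junb, 0.92 for Fosb, 0.86 for Jund, 0.82 for Fosl2, 0.73 for Ier2 and 0.19 for Egr1. Without replicate 2 of Cdc42-/- the values were 0.96 for Jun, 0.90 for Dusp1, 0.88 for Zfp36, 0.96 for Junb, 0.93 for Fosb, 0.98 for Jund, 0.27 for Fosl2, 0.57 for Ier2 and 0.65 for Egr1, so that the low value of Egr1 and the high value of Fosl2 rest on that library. These 6 points share 3 genotypes and are given as a description. Of 429 genes averaging 5 RPKM or more and spanning 2 log2 units or more, those most like Fos outside the list were Fabp5, Ifitm2, Hmgb3, Plk4, Gzma and Cdc45, with r between 0.98 and 0.99. Fabp5, a fatty acid binding protein, was at 8.96 and 11.1 RPKM in WT, at 10.5 and 9.63 RPKM in Cdc42+/-, and at 26.0 and 48.5 RPKM in Cdc42-/-. Gzma, granzyme A of cytotoxic granules, was at 0.143 and 1.06 RPKM in WT, at 1.04 and 0.576 RPKM in Cdc42+/-, and at 13.5 and 34.2 RPKM in Cdc42-/-.

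Other AP-1 relatives were measured through a list of 16 bZIP genes, of which 13 were in the tables and tested. In Cdc42-/- against WT, 2 were called higher and 0 lower, where 6.86% and 4.57% of all genes were, and the median log2 fold change was 0.53 against 0.01 over all genes. Batf (gene ID 53314), which pairs with Jun proteins and IRF4 in activated T cells, was at 50.5 and 57.0 RPKM in WT, at 60.5 and 47.8 RPKM in Cdc42+/-, and at 83.2 and 93.3 RPKM in Cdc42-/- (log2 0.71, SE 0.15, limma adjusted p 0.0342). Jdp2 (gene ID 81703), a Jun partner known as a repressor, rose from 0.735 and 1.12 RPKM in WT to 3.61 and 3.49 RPKM in Cdc42-/- (log2 1.25, SE 0.23, limma adjusted p 0.0237). Batf was also called against Cdc42+/- (log2 0.70, SE 0.15, limma adjusted p 0.0417), and was the 1 gene of this list called there, where 4.68% of all genes were called higher. In Cdc42+/- against WT none of the 13 passed, with 1 at an unadjusted p under 0.05 in limma and none past the threshold with voom.

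A list of 35 other immediate early genes moved in both directions. In Cdc42-/- against WT, 11 were called higher and 5 lower, where 6.86% and 4.57% of all genes were, with a median log2 fold change of 0.29 against 0.01 over all genes. Nr4a1 (gene ID 15370), the orphan nuclear receptor Nur77 that marks antigen receptor signalling, was at 34.7 and 36.5 RPKM in WT, at 36.7 and 38.7 RPKM in Cdc42+/-, and at 68.7 and 83.5 RPKM in Cdc42-/- (log2 1.07, SE 0.13, limma adjusted p 0.00550). Ier3 (gene ID 15937), a survival factor, was at 0.115 and 0.321 RPKM in WT and at 3.90 and 7.93 RPKM in Cdc42-/- (log2 2.45, SE 0.34, limma adjusted p 0.00939). The RNA-binding protein Zfp36l1 (gene ID 12192), a relative of Zfp36, went the other way. It fell from 180.5 and 187 RPKM in WT to 95.8 and 82.4 RPKM in Cdc42-/- (log2 -1.04, SE 0.11, limma adjusted p 0.00431). The antiproliferative gene Btg1 (gene ID 12226) fell from 222 and 219 RPKM to 109 and 95.8 RPKM (log2 -1.10, SE 0.11, limma adjusted p 0.00310). Its relative Btg2 (gene ID 12227), at 77.6 and 71.6 RPKM in WT and 91.2 and 92.1 RPKM in Cdc42+/-, was at 50.3 and 39.8 RPKM in Cdc42-/- (log2 -1.02 against Cdc42+/-, SE 0.13, limma adjusted p 0.0135). Against Cdc42+/-, 5 genes of the list were called higher and 4 lower, where 4.68% and 3.54% of all genes were. Nr4a1 (log2 0.99) was among the higher, and Btg1 (log2 -1.09) and Zfp36l1 (log2 -1.09) were among the lower. In Cdc42+/- against WT none of the 35 passed, with 4 at an unadjusted p under 0.05 in limma and none past the threshold with voom.

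The 28 genes of the signalling routes to immediate early genes (among them MAP kinases, serum response factor and its partners, and PAK kinases) lay close to level in Cdc42-/-, where their median on the log2 scale was 0.02 against WT and -0.06 against Cdc42+/- (0.04 and -0.03 without replicate 2). Elk3 (gene ID 13713), a partner of serum response factor, was called lower in Cdc42-/- than in Cdc42+/-. Its WT libraries held 22.5 and 22.2 RPKM, its Cdc42+/- libraries 25.5 and 23.6 RPKM, and its Cdc42-/- libraries 16.9 and 17.4 RPKM (log2 -0.50 against Cdc42+/-, SE 0.11, limma adjusted p 0.0471). In Cdc42+/- against WT none of the 28 passed, with 0 at an unadjusted p under 0.05 in limma and none past the threshold with voom.

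Heat shock genes, which like immediate early genes respond to stress on cells, were in part higher in Cdc42-/-. Of 12 listed, 10 were tested, and 3 were called higher and 0 lower against WT, where 6.86% and 4.57% of all genes were (median log2 fold change 0.57 against 0.01 over all genes). Hspa8 (gene ID 15481), the constitutive HSP70 chaperone, was at 635 and 619 RPKM in WT, at 702 and 757 RPKM in Cdc42+/-, and at 1096 and 1275 RPKM in Cdc42-/- (log2 0.91, SE 0.13, limma adjusted p 0.0109). Dnajb1 (gene ID 81489), an HSP40 co-chaperone, was at 14.7 and 11.9 RPKM in WT and at 26.2 and 25.5 RPKM in Cdc42-/- (log2 0.91, SE 0.14, limma adjusted p 0.0141). Hsp90aa1 (gene ID 15519), an HSP90 chaperone, stood at 117 and 146 RPKM in WT and at 211 and 348 RPKM in Cdc42-/- (log2 1.05, SE 0.24, limma adjusted p 0.0443). Without replicate 2 of Cdc42-/- the median of this list against WT was 0.14, with 4 called higher and 1 lower, where 19.6% of all genes were called, and its part in the levels of the 10 genes was not tested. In Cdc42+/- against WT none of the 10 heat shock genes passed, with 1 at an unadjusted p under 0.05 in limma and none past the threshold with voom.

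Over the 4 lists together, 22 genes were called in Cdc42-/- against WT. The number was 6 without Cdc42+/- replicate 1, 7 without Cdc42+/- replicate 2, and 1 (Btg1) without either WT library. It was 45 without Cdc42-/- replicate 1, where the share of all genes called went from 11.4% to 36.2%. Without Cdc42-/- replicate 2 it was 31, where that share was 19.6%, and the median of the other AP-1 genes was then 0.22 and that of the other immediate early genes 0.31. Against Cdc42+/-, 13 were called, 0 without either Cdc42+/- library, and 2 and 3 without WT replicates 1 and 2. Without Cdc42-/- replicates 1 and 2 they were 38 and 29, where 34.8% and 15.4% of all genes were called. Without Cdc42-/- replicate 2 the called counts against WT were 3 higher and 0 lower for the other AP-1 genes and 16 and 6 for the other immediate early genes, where 19.6% of all genes were called. Against Cdc42+/- they were 2 and 0 for the other AP-1 genes, 13 and 6 for the other immediate early genes, and 3 and 3 for heat shock genes, where 15.4% of all genes were called. Of 12 alternatives, Batf was called under 6 against WT and 5 against Cdc42+/-, Jdp2 under 7, Hsp90aa1 under 6, Hspa8 under 7, Dnajb1 under 8 and Ier3 under 9 against WT. Nr4a1 and Zfp36l1 were called under 10 and Btg1 under 12 against WT, and Btg2 under 7 and Elk3 under 5 against Cdc42+/-. Each gene named against WT except Btg1 lost its call without either WT library, and each named against Cdc42+/- lost it without either Cdc42+/- library. Batf and Elk3 were also not called with the replicate numbers as a block. The named genes kept their directions without Cdc42-/- replicate 2. Nothing is read from their calls in that fit, since the lone Cdc42-/- library is assumed to vary like the other genotypes. Those had closer replicates, with median absolute gaps of 0.16 (WT) and 0.12 (Cdc42+/-) over all genes, against 0.30 in Cdc42-/-. The same limit holds for the counts above without 1 Cdc42-/- library. Without that replicate the log2 value against WT was 1.26 for Jdp2, 0.62 for Batf, 0.93 for Nr4a1, 2.01 for Ier3, -0.93 for Zfp36l1 and -1.01 for Btg1. Among the heat shock genes it was 0.80 for Hspa8, 0.93 for Dnajb1 and 0.69 for Hsp90aa1. Against Cdc42+/- it was 0.62 for Batf, 0.85 for Nr4a1, -1.004 for Btg1, -0.98 for Zfp36l1, -0.85 for Btg2 and -0.52 for Elk3.

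**Figure D5:**
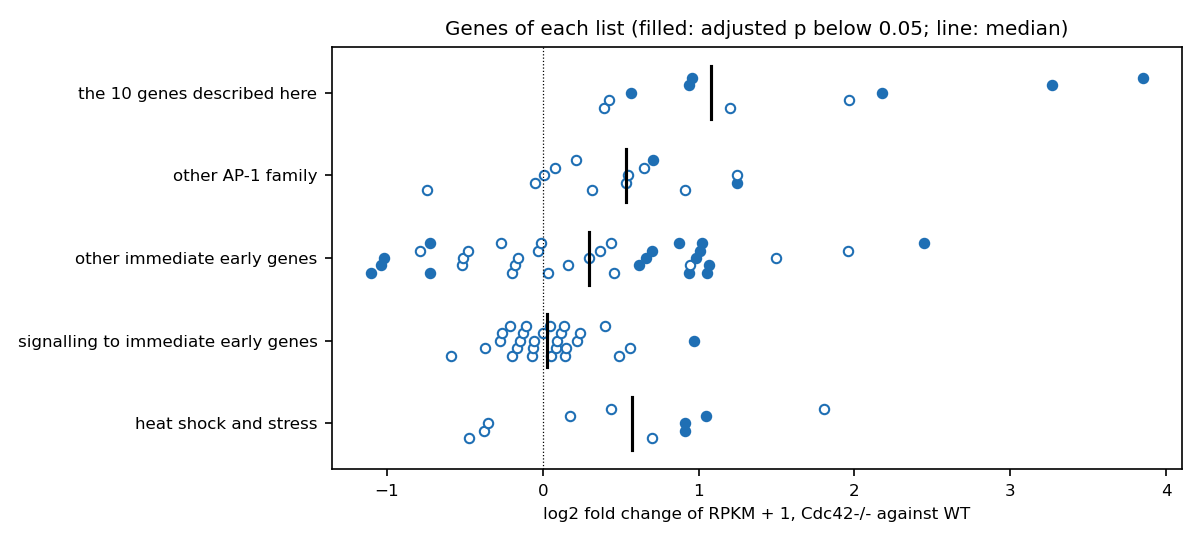
The log2 fold change of RPKM + 1 in Cdc42-/- against WT (horizontal axis) for the 10 genes and for 4 lists, with 1 point per gene, filled where limma's adjusted p was below 0.05, and a line at each median. The medians are 1.08, 0.53, 0.29, 0.02 and 0.57 from top to bottom, and the other immediate early genes have called genes on both sides of 0.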

How the data were processed

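Reads were aligned with TopHat to mm10, per the submitters' processing notes. The counting tool, annotation and strand setting are not given in the sources used here. The library columns hold RPKM, as worked out from the deposited values: combined with the authors' group means (a signal of reads over size factors), 100% of values gave whole reads within 0.0001 of a read. The deposited tables also hold the authors' fold change (a ratio), its log2 value, and p-values with adjusted p-values per gene, whose test is not named. Genes averaging 0.5 RPKM or more were fitted on log2(RPKM + 1) with limma 3.58.1 in R 4.3.3 (mean-variance trend, 6 libraries in 1 fit, Benjamini-Hochberg adjustment over all genes at 0.05). The fit was tested on counts simulated with the same spread in all genotypes, so that test does not cover the wider replicate gap of Cdc42-/-.

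The 10 genes and the 4 lists were chosen with earlier results of these data known. From each list and comparison, up to 4 genes past the threshold with the smallest p were named, and genes like Fos were the 6 with the highest r. A result of the signalling list is not reported here. The lists of NK, CD8 T, dendritic cell and platelet markers summed to 1.28 to 3.93, 6.72 to 10.6, 0.815 to 2.48 and 0.841 to 3.66 RPKM. Gene positions are from GENCODE M21 (GRCm38). Exons of Jun, Junb, Jund, Dusp1 and Zfp36 overlap another gene on the opposite strand (Junos, Prdx2, Gm11175, Ergic1 and Gm44710), so reads may have been shared if strand was not used. Read numbers cover counting error only, since PCR copies are not independent molecules.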

Additional observations from a re-analysis of the deposited data

How the results depend on the processing

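The counts of genes called and the log2 values of the 10 genes and of the named listed genes were computed under 12 alternatives; list medians and the correlations of the 10 genes with Fos were computed only with and without Cdc42-/- replicate 2, and shares, ranks and the genes most like Fos only over all 6 libraries. The number of the 10 genes called in Cdc42-/- against WT ranged from 0 to 8 when 1 library was left out, and was 2 with only the genotypes compared. Against Cdc42+/- it ranged from 0 to 8 and was 0 with only the genotypes compared. For the 4 lists the numbers were 1 to 45 and 6 against WT, and 0 to 38 and 2 against Cdc42+/-. In Cdc42+/- against WT 0 to 2 listed genes were called when 1 library was left out, and 1 with only the genotypes compared. With voom on the recovered reads Fos was not called in either comparison of Cdc42-/-, at larger log2 values (4.42 against WT and 4.85 against Cdc42+/-). Against WT, Ier2 was not called with upper-quartile scaling (0.49) or the replicate block (0.57), nor Zfp36 without the filter on low values (0.94). Of 360 log2 values of the 10 genes, 5 changed sign, each with 1 library left out. In Cdc42+/- against WT, Fos ranged from -0.89 to 0.086 (above 0 without WT replicate 2), Junb from -0.045 to 0.28 (below 0 without Cdc42+/- replicate 1 and, at -0.012, without WT replicate 1) and Jund from -0.23 to 0.041 (above 0 without Cdc42+/- replicate 2). In Cdc42-/- against Cdc42+/-, Egr1 ranged from -0.19 (without Cdc42-/- replicate 1) to 0.35. The cause was not tested. The named listed genes kept their direction under these alternatives.

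Replicate numbers are shared between genotypes, but nothing in the labels pairs the mice. The differences between replicates 1 and 2 correlated across genes at 0.02 (WT and Cdc42+/-), 0.20 (WT and Cdc42-/-) and -0.03 (Cdc42+/- and Cdc42-/-). With the replicate block, 5 and 4 of the 10 genes and 20 and 11 of the listed genes were called in Cdc42-/- against WT and against Cdc42+/-.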
